A study of Arabidopsis with 12 samples.

Results

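Phytochrome A is the far-red-sensing photoreceptor of Arabidopsis. The transcriptome of shaded leaves of the phyA-211 mutant was compared here with that of the wild type Col-0, both kept in medium with sucrose. The comparison rests on 6 of the 12 libraries of the study. Of these, 3 are phyA-211 in shade with 30 mM sucrose and 3 are Col-0 in shade with 30 mM sucrose. The other 6 libraries, phyA-211 and Col-0 in shade with 30 mM sorbitol, entered the same fit and are set beside the sucrose comparison. Every seedling grew for 10 days in white light and then spent 6 h under shade light with a ratio of red to far-red of 0.17. All groups share the shade, and no comparison measures shade itself. Leaf tissue was sampled and polyadenylated RNA sequenced. The labels name the genotype as the mutant phyA-211 with no further allele or rescue line. They do not say whether the 3 libraries of a group came from separate cultures, so the p-values measure the spread between these libraries only. Levels are in TPM, a transcript level scaled to the same total in each library. Of 32833 genes in the table, the 19862 that reached 1 TPM in no fewer than 3 of the 12 libraries entered the test. Throughout, a log2 change is that of TPM + 1, phyA-211 over Col-0, and a gene rose or fell where its adjusted p in limma was under 0.05. A call is said to be lost where it misses that threshold on median-ratio rescaling, on quantile normalization or without 1 of the 6 sucrose libraries. A fit of the 2 sucrose groups alone, in which 266 genes rose and 388 fell, is named where it alone ended a call. Genes are also counted in lists by pathway. The lists and their members were chosen with earlier results of these data known. Their counts therefore describe these data and are no independent test.

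In shade the red to far-red ratio drops, phytochrome B loses its active form and the PIF transcription factors drive elongation genes and auxin synthesis. Phytochrome A works the other way round: far-red light brings it into the nucleus with the help of FHY1 and FHL, where it restrains COP1 and the SPA proteins and lets HY5 build up, and so it limits the shade response. HY5 in turn promotes genes for flavonoids, photoprotection and chloroplast development. Sucrose is both a carbon source and a signal: it represses the genes of the starvation response and activates the TOR kinase, and the title of the study places TOR and phytochrome A together in leaf development under shade.

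The deposited TPM values of each library summed to between 998274.11 and 998846.46, and between 22451 and 22852 genes had a value above 0. The files hold no read counts, so the sequencing depth is unknown. Library 3 of phyA-211 with sucrose stood apart: its root mean square distance from the rest of its group was 0.590 on the log2 scale, against 0.340 to 0.504 for the other 11 libraries. The 5 defining leaf genes (RBCS1A, LHCB1.1, LHCB2.1, LHCA1 and LHCB3) summed to between 10509.75 and 23427 TPM in the phyA-211 sucrose libraries and between 20793 and 25057 TPM in the Col-0 sucrose libraries, the low value being that of library 3. The 13 root markers summed to between 82.7 and 155.8 TPM in phyA-211 and between 87.7 and 162.3 TPM in Col-0. None of these was at 0 in all 6 libraries, and 0 of the 13 passed in limma or had an unadjusted p under 0.05. The 9 shoot meristem markers summed to between 60.4 and 63.8 TPM in phyA-211 and between 40.2 and 57.7 TPM in Col-0, ranges that do not overlap, and 2 of them stayed under 1 TPM. Of the 6 meristem genes tested only CLV1, a receptor kinase of the meristem, passed (40.8, 39.8 and 32.6 TPM in phyA-211 and 29.7, 24.9 and 19.5 TPM in Col-0; log2 change 0.61, adjusted p = 0.0442). Its call was lost without phyA-211 library 1 or 2 or Col-0 library 2 or 3 (adjusted p = 0.109 to 0.15), on median-ratio rescaling (adjusted p = 0.0691) and on quantile normalization (adjusted p = 0.0664). The part of this difference in the other results was not tested.

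PHYA itself, which checks the labels, measured 44.9, 44.7 and 37.4 TPM in the phyA-211 libraries, against 343, 269.9 and 223 TPM in the Col-0 libraries. The groups were far apart and the mutant kept 15.2% of the Col-0 mean (log2 change -2.67, SE 0.16, adjusted p = 3.8e-06 by limma). The exact 2-sided permutation test of 3 against 3 libraries gave p = 0.1, the smallest it allows. The non-coding RNA gene AT1G09557 lies near PHYA on chromosome 1, with GLP5 between them among the genes tested. It had 31.2, 30.9 and 53.0 TPM in phyA-211 and 0.93, 0 and 0.4 TPM in Col-0 (log2 change 4.78, adjusted p = 0.00125). This transcript was thus high in the mutant and close to 0 in Col-0, and it was also higher in the mutant with sorbitol (log2 change 3.46, adjusted p = 0.0187). Among the 20 tested genes nearest to PHYA, 10 on each side, 3 more rose. These were PIF3, given with the shade genes, AT1G09575 and AT1G09645. AT1G09575, described as calcium uniporter-like (log2 change 0.73, adjusted p = 0.0111), was lost without Col-0 library 2 (adjusted p = 0.0669). AT1G09645, a membrane protein gene (log2 change 0.49, adjusted p = 0.0472), was lost without phyA-211 library 1, 2 or 3 or Col-0 library 1, 2 or 3 (adjusted p = 0.0559 to 0.192), on median-ratio rescaling (adjusted p = 0.185) and on quantile normalization (adjusted p = 0.152). The other 16 did not pass. Strand was not stated in the sources used here, so reads of AT1G09557 cannot be told apart from those of an overlapping neighbour.

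**Figure D1:**
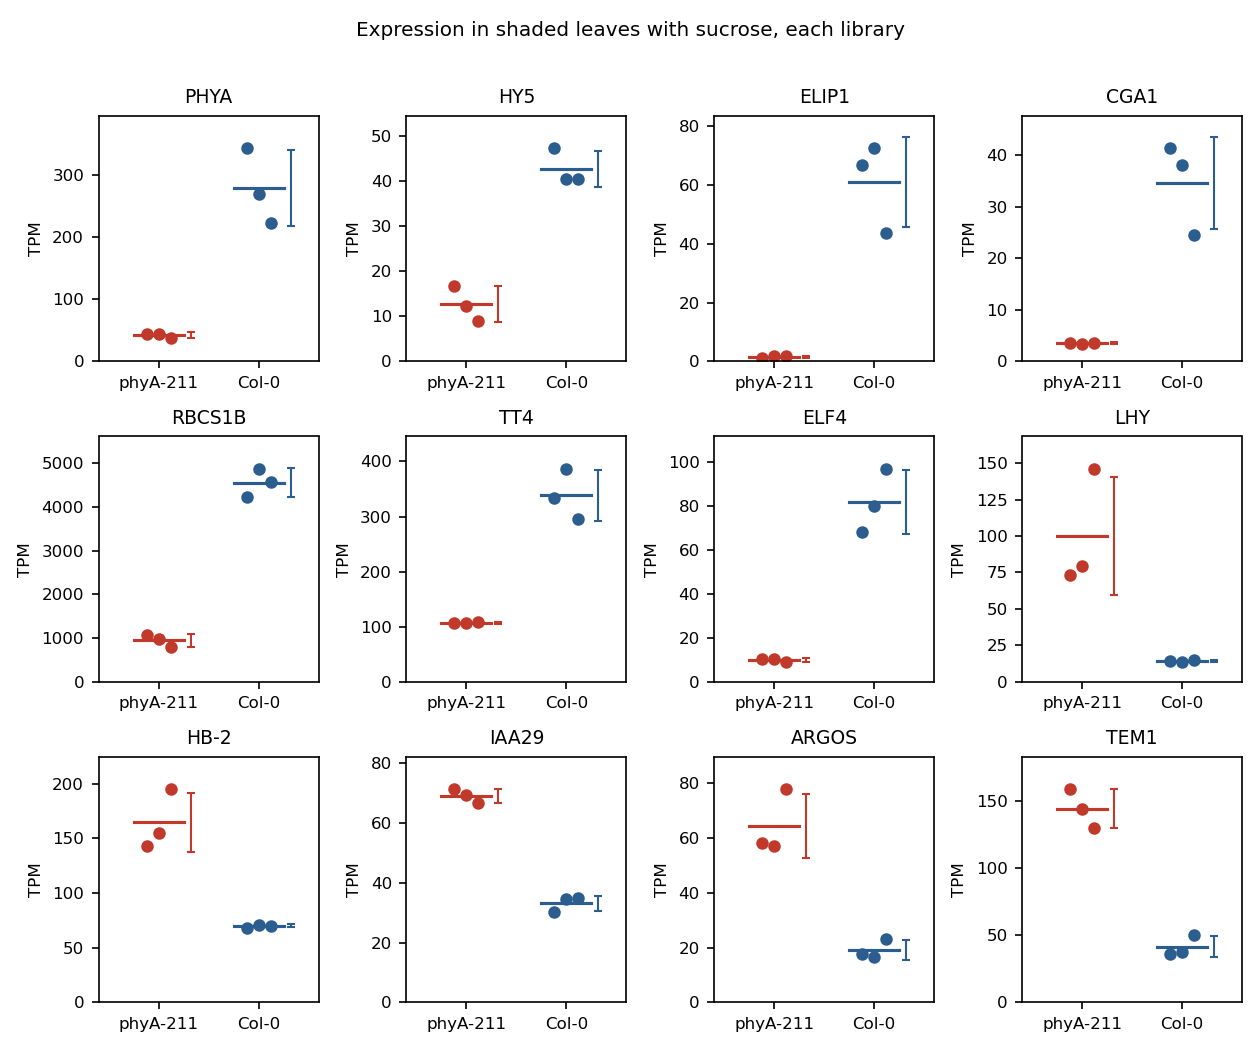
TPM of 12 genes in each of the 3 phyA-211 (red, left) and 3 Col-0 (blue, right) libraries with sucrose, on linear axes from 0; points are libraries, horizontal lines means and bars ± 1 SD (n = 3). In all 12 panels the libraries of the genotypes do not overlap; ELIP1 and CGA1 lie near the floor in phyA-211, and LHY is highest in library 3 of phyA-211.

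Of the genes tested, 824 (4.15%) rose in phyA-211 with sucrose and 645 (3.25%) fell, at an adjusted p under 0.05 in limma. Together they are 7.4% of the genes. An unadjusted p under 0.05 in limma was reached by 4759 of the 19862 genes tested. Counts of such genes in lists and families are to be read beside that. The median log2 change of all genes was 0.12, so a small upward shift of the whole table lies under these counts. After median-ratio rescaling of the libraries, which brings that median to 0.02, 602 genes rose and 912 fell, so rises made up 39.8% of the calls instead of 56.1%, and 43.3% with quantile normalization. The counts also turn on single libraries: 254 rose and 316 fell without Col-0 library 2, 326 rose and 408 fell without phyA-211 library 2, 377 rose without Col-0 library 3, and 936 rose and 675 fell without phyA-211 library 3. Of the 1469 genes called, 539 (237 rises, 302 falls) were called whichever of the 6 libraries was left out. A change of at least 2-fold on the log2(TPM + 1) scale was reached by 179 of the rises and 292 of the falls. Whether rises or falls were the more numerous thus depends on the scaling, the fold asked for and the library left out. For 3805 genes (19.2%) every phyA-211 library was above every Col-0 library, and for 1671 (8.41%) every phyA-211 library was below. These shares, with the 4.15% that rose and the 3.25% that fell, are the ones to set beside the counts of lists and families below.

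The largest rise among genes with a symbol was that of QRT1, a pectin methylesterase gene known for the separation of pollen grains. It had 66.5, 69.7 and 57.2 TPM in the phyA-211 libraries, against 0.74, 0.41 and 0.81 TPM in the Col-0 libraries (log2 change 5.31, SE 0.14, adjusted p = 2.27e-09). The Col-0 level was under 1 TPM in every library. MRD1, a gene named for its lower expression in a methionine-overaccumulating mutant, followed with 54.6, 51.0 and 67.6 TPM in phyA-211 and 1.59, 2.60 and 3.91 TPM in Col-0 (log2 change 4.03, adjusted p = 0.0012). HEI10, the next locus along the chromosome and a meiotic crossover factor, had 14.4, 14.0 and 18.3 TPM in phyA-211 and 2.88, 1.94 and 2.96 TPM in Col-0 (log2 change 2.21, adjusted p = 3.24e-05). QQS, an orphan gene known to lower starch content, had 82.3, 83.7 and 52.6 TPM in phyA-211 and 7.06, 9.54 and 9.31 TPM in Col-0 (log2 change 2.92, adjusted p = 7.03e-05). These 4 genes separated the genotypes in all libraries with sorbitol as well (log2 change 5.92 for QRT1, 3.77 for MRD1, 2.23 for HEI10 and 3.09 for QQS). LBD26, a LOB-domain transcription factor gene, rose by 2.62 and GH9B15, a cellulase-family gene, by 1.87 on the log2 scale.

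ACS8, an ethylene synthesis enzyme gene, had 35.1, 39.5 and 69.3 TPM in phyA-211 and 12.6, 9.98 and 9.32 TPM in Col-0 (log2 change 2.02, adjusted p = 0.00349). The calmodulin-like gene CML41 rose by 2.01 on the log2 scale. TCH3, a calmodulin-like gene known as touch-inducible, had 436, 417 and 608 TPM in phyA-211 and 129, 119 and 139.8 TPM in Col-0 (log2 change 1.89, adjusted p = 7.03e-05). LBD41, a gene known to respond to low oxygen, had 8.58, 9.53 and 28.1 TPM in phyA-211 and 7.56, 2.46 and 1.61 TPM in Col-0, its highest value in library 3 of phyA-211, and was lost without phyA-211 library 2 or 3 or Col-0 library 2 or 3 (adjusted p = 0.076 to 0.171). The small nucleolar RNA gene U3D rose by 2.01 and was lost without phyA-211 library 1 or 2 or Col-0 library 1 or 2 (adjusted p = 0.0651 to 0.0754), on median-ratio rescaling (adjusted p = 0.0573) and on quantile normalization (adjusted p = 0.0527). Among the genes of this size, 18 rises and 7 falls have no symbol in the table. Of these AT5G24240, described as a phosphatidylinositol 4-kinase gamma-like gene, had 20.2, 21.6 and 24.2 TPM in phyA-211 and 0.42, 0.12 and 0.15 TPM in Col-0. The non-coding RNA gene AT2G08420 had 57.3, 70.5 and 54.7 TPM in phyA-211 and 0, 2.43 and 0 TPM in Col-0. AT1G78995 went the other way: it was listed at 0 in all 3 phyA-211 libraries and at 14.7, 23.0 and 18.21 TPM in Col-0.

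The largest fall with a symbol was that of ELIP1, given with the photoprotection genes. FBA5, an aldolase gene, had 23.3, 16.5 and 4.90 TPM in phyA-211 and 196, 206 and 209 TPM in Col-0 (log2 change -3.91, adjusted p = 0.000289). CP12-2, a small regulator of the Calvin cycle, had 86.7, 64.0 and 12.5 TPM in phyA-211 and 418, 513 and 560.0 TPM in Col-0 (log2 change -3.54, adjusted p = 0.00208). For both, library 3 of phyA-211 was lower than the other 2. The cytochrome P450 gene CYP706A6 measured 4.21, 4.03 and 2.71 TPM in phyA-211 and 38.7, 36.4 and 28.9 TPM in Col-0 (log2 change -2.95, adjusted p = 0.000219). MSRB6, a methionine sulfoxide reductase gene, had 20.3, 12.8 and 14.2 TPM in phyA-211 and 94.9, 112 and 115 TPM in Col-0 (log2 change -2.71, adjusted p = 8.37e-05). Further falls were PDX1L4 (log2 change -2.56), a relative of vitamin B6 synthesis genes, SQP1 (-2.52), a squalene epoxidase-like gene, HBP1 (-2.49), a heme-binding protein gene, and ATSPS4F (-2.44), a sucrose-phosphate synthase. ATSPS4F makes the precursor of sucrose, and its values were 6.94, 8.09 and 8.67 TPM in phyA-211 and 53.9, 51.0 and 38.3 TPM in Col-0. Each gene named here had a lower value in every phyA-211 library than in any Col-0 library. The small nuclear RNA gene AT3G09005 was listed at 0 in all 3 phyA-211 libraries and at 17.4, 53.2 and 6.39 TPM in Col-0 and was lost without phyA-211 library 1, 2 or 3 or Col-0 library 1, 2 or 3 (adjusted p = 0.0535 to 0.178), on median-ratio rescaling (adjusted p = 0.0561) and on quantile normalization (adjusted p = 0.053).

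Genes of phytochrome A entry and early light signalling moved in both directions: of 19 tested, 3 rose (15.8%) and 6 fell (31.6%), with a median log2 change of -0.17 beside 0.12 for all genes. HY5, the bZIP factor that promotes photomorphogenesis, was at 16.8, 12.3 and 9.03 TPM in the phyA-211 libraries, against 47.3, 40.4 and 40.4 TPM in the Col-0 libraries (log2 change -1.71, SE 0.17, adjusted p = 0.000159). Its partner HYH measured 33.2, 27.9 and 39.8 TPM in phyA-211 and 70.2, 79.6 and 87.9 TPM in Col-0 (log2 change -1.22, adjusted p = 0.000383). RUP2 and RUP1, which switch the UV-B receptor off, fell by 1.43 and 1.28 on the log2 scale, and SIGE (SIG5), a light-responsive sigma factor of chloroplast transcription, by 1.46. SPA3, a partner of COP1, measured 31.5, 26.3 and 19.7 TPM in phyA-211 and 55.4, 53.0 and 41.0 TPM in Col-0, a call lost without phyA-211 library 2 or 3 or Col-0 library 1 or 2 (adjusted p = 0.0854 to 0.136). Among the 3 rises, FHL, which carries phytochrome A into the nucleus, had 7.45, 10.9 and 10.1 TPM in phyA-211 and 2.52, 3.17 and 4.08 TPM in Col-0 (log2 change 1.299, adjusted p = 0.00134). PKS4, a phytochrome kinase substrate of phototropism, had 34.3, 35.4 and 27.0 TPM in phyA-211 and 10.7, 10.8 and 12.3 TPM in Col-0 (log2 change 1.43, adjusted p = 5.42e-05). Its relative PKS2 had 104, 95.0 and 109.8 TPM in phyA-211 and 65.0, 62.5 and 54.9 TPM in Col-0 (log2 change 0.75, adjusted p = 0.00144). FHY1 (AT2G37678), the other carrier, did not pass (log2 change 0.14), nor did COP1 (-0.17) or FHY3 (0.34).

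Of 13 photoreceptor genes other than PHYA tested, 0 rose and 3 fell (23.1%), with a median log2 change of 0.01. FKF1, a blue-light receptor of flowering time, had 1.84, 1.93 and 3.76 TPM in phyA-211 and 12.1, 10.6 and 10.4 TPM in Col-0 (log2 change -1.81, adjusted p = 0.00102). CRY3, an organelle cryptochrome, had 20.6, 18.9 and 20.4 TPM in phyA-211 and 33.6, 32.8 and 28.6 TPM in Col-0 (log2 change -0.64, adjusted p = 0.00398). PHOT2, a blue-light receptor of chloroplast movement, had 60.6, 53.5 and 47.1 TPM in phyA-211 and 126, 112 and 75.5 TPM in Col-0, a call lost without phyA-211 library 1, 2 or 3 or Col-0 library 1 or 2 (adjusted p = 0.06 to 0.158). For the other phytochromes, PHYB, PHYC, PHYD and PHYE, the log2 changes were 0.25, 0.01, 0.51 and 0.00, none of which passed. Of 17 B-box zinc finger genes, 1 rose (5.88%) and 4 fell (23.5%). LZF1 (BBX22), a HY5 partner, had 8.71, 9.91 and 13.3 TPM in phyA-211 and 30.4, 23.3 and 22.1 TPM in Col-0 (log2 change -1.18, adjusted p = 0.00209). STO (BBX24), which restrains HY5, had 143, 127 and 119.6 TPM in phyA-211 and 215, 202 and 194 TPM in Col-0 (log2 change -0.65, adjusted p = 0.00333). BBX32 fell by 1.47 on the log2 scale and was lost without phyA-211 library 2 or Col-0 library 2 (adjusted p = 0.0517 to 0.0694). BBX18 fell by 0.92 and was lost without phyA-211 library 2 or Col-0 library 1, 2 or 3 (adjusted p = 0.0523 to 0.0828). BBX21, which promotes HY5, rose by 0.76 and was lost without phyA-211 library 2 or Col-0 library 2 (adjusted p = 0.0501 to 0.0676). The list held 2 falls without Col-0 library 2 or phyA-211 library 2, 0 rises without either of them, 2 rises without Col-0 library 3 and 3 rises without phyA-211 library 3.

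The list of photoprotection and chloroplast regulators, chosen with earlier results of these data known, moved in 1 direction. Each of the 12 genes tested was lower in every phyA-211 library than in any Col-0 library, against 8.41% of all genes. Of the 12, 9 (75%) passed as falls, 0 rose, and the median log2 change was -1.05. ELIP1, an early light-induced protein of the thylakoid, measured 1.25, 1.92 and 1.70 TPM in the phyA-211 libraries, against 66.7, 72.6 and 43.7 TPM in the Col-0 libraries (log2 change -4.54, SE 0.33, adjusted p = 2.61e-05). Its paralog ELIP2 had 3.48, 3.90 and 4.92 TPM in phyA-211 and 77.6, 67.1 and 51.2 TPM in Col-0 (log2 change -3.69, SE 0.33, adjusted p = 7.78e-05). CGA1, a GATA factor of chloroplast development, had 3.65, 3.41 and 3.61 TPM in phyA-211 and 41.4, 38.0 and 24.5 TPM in Col-0 (log2 change -2.93, adjusted p = 2.61e-05). Its paralog GNC had 26.1, 28.4 and 21.1 TPM in phyA-211 and 60.9, 52.2 and 40.05 TPM in Col-0 (log2 change -0.98, adjusted p = 0.00468). NPQ1, the violaxanthin de-epoxidase of energy dissipation, had 31.7, 29.1 and 20.1 TPM in phyA-211 and 76.5, 66.8 and 55.6 TPM in Col-0 (log2 change -1.28, adjusted p = 0.00222). NPQ4, the PsbS protein of the same process, had 975, 844 and 679 TPM in phyA-211 and 1453, 1668 and 1685 TPM in Col-0 (log2 change -0.96, adjusted p = 0.00528). The stress-enhanced protein SEP2 fell by 1.14 on the log2 scale. GLK2, a regulator of photosynthesis genes, had 131, 116 and 77.2 TPM in phyA-211 and 209, 205 and 196 TPM in Col-0 but was lost without Col-0 library 2 (adjusted p = 0.0714). OHP, an antenna-related protein, fell by 1.12 and was lost without phyA-211 library 2 or 3 or Col-0 library 2 or 3 (adjusted p = 0.079 to 0.174), on median-ratio rescaling (adjusted p = 0.0742) and on quantile normalization (adjusted p = 0.0709). The list held 7 to 9 falls whichever library was left out, and 9 on median-ratio rescaling. In RNA of a whole organ, fewer cells of a type and less RNA per cell cannot be told apart.

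Of 23 light-harvesting antenna and Rubisco genes tested, 3 fell (13%), 0 rose and the median log2 change was -0.33. Library 3 of phyA-211 was the lowest of the 6 libraries in all 23 of them, and in 2729 of all 19862 genes tested. Without that library the median of the list was 0.10, with 1 rise and 3 falls. Without Col-0 library 2 the list held 1 fall. RBCS1B, a Rubisco small subunit gene, measured 1079.7, 979 and 790.4 TPM in the phyA-211 libraries, against 4231, 4880.2 and 4567 TPM in the Col-0 libraries (log2 change -2.27, SE 0.18, adjusted p = 4.5e-05). The family member RBCS2B had 2274, 2021 and 1276 TPM in phyA-211 and 3692, 4120.4 and 3949.8 TPM in Col-0 (log2 change -1.12, adjusted p = 0.0116; lost without Col-0 library 2 (adjusted p = 0.062)). RBCS1A, the most abundant family member, had 12179, 11743 and 6269 TPM in phyA-211 and 11794, 14055 and 11563 TPM in Col-0. CAB1, a main antenna gene, had 25459, 22687 and 12755 TPM in phyA-211 and 18810.1, 19754 and 20062 TPM in Col-0. Neither passed, and their groups overlapped. Near-identical members of the RBCS and CAB families may share reads, so the split between them is uncertain. Of 16 genes of chlorophyll synthesis only GUN4, a cofactor of magnesium chelatase, passed (124, 114 and 71.7 TPM in phyA-211 and 199, 217 and 180.4 TPM in Col-0; log2 change -0.97, adjusted p = 0.0115; lost without Col-0 library 2 (adjusted p = 0.0635)).

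Subunits of the chloroplast NDH complex, which carries cyclic electron flow around photosystem I, were grouped with the PsbP and PsbQ-like proteins after their values had been seen. Of 36 tested, 15 (41.7%) fell and 0 rose. PnsL3 had 18.9, 14.97 and 6.19 TPM in phyA-211 and 64.0, 68.8 and 69.3 TPM in Col-0 (log2 change -2.38, adjusted p = 0.00102). PnsB3 had 37.4, 33.3 and 12.2 TPM in phyA-211 and 93.8, 122 and 111 TPM in Col-0 (log2 change -2.07, adjusted p = 0.00255). NdhN was at 26.0, 25.9 and 17.56 TPM in phyA-211 and 55.5, 61.9 and 56.2 TPM in Col-0 (log2 change -1.30, adjusted p = 0.000941). PnsL2, NdhM, NdhT and PnsB2 fell by 2.17, 1.77, 1.53 and 1.27 on the log2 scale. Lhca6, the antenna protein that links the NDH complex to photosystem I, had 31.8, 26.8 and 14.9 TPM in phyA-211 and 70.1, 80.8 and 77.0 TPM in Col-0 (log2 change -1.66, adjusted p = 0.00139). In each of these genes library 3 was the lowest of the phyA-211 libraries, while all 3 stayed below Col-0. Of 43 genes matched to Calvin cycle enzymes, a group likewise drawn up afterwards, 8 fell (18.6%) and 0 rose. FBA1, a chloroplast aldolase, was at 495, 430.0 and 226 TPM in phyA-211 and 849, 1053 and 935 TPM in Col-0 (log2 change -1.37, adjusted p = 0.00635; adjusted p = 0.0534 with the 2 groups alone). PRK, phosphoribulokinase (log2 change -1.12, adjusted p = 0.0339), was lost without Col-0 library 1, 2 or 3 (adjusted p = 0.069 to 0.126) and on quantile normalization (adjusted p = 0.0582). GAPA, a glyceraldehyde-phosphate dehydrogenase subunit (log2 change -0.89, adjusted p = 0.0489), was lost without phyA-211 library 2 or Col-0 library 1, 2 or 3 (adjusted p = 0.0782 to 0.173), on median-ratio rescaling (adjusted p = 0.0633) and on quantile normalization (adjusted p = 0.0737).

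**Figure D2:**
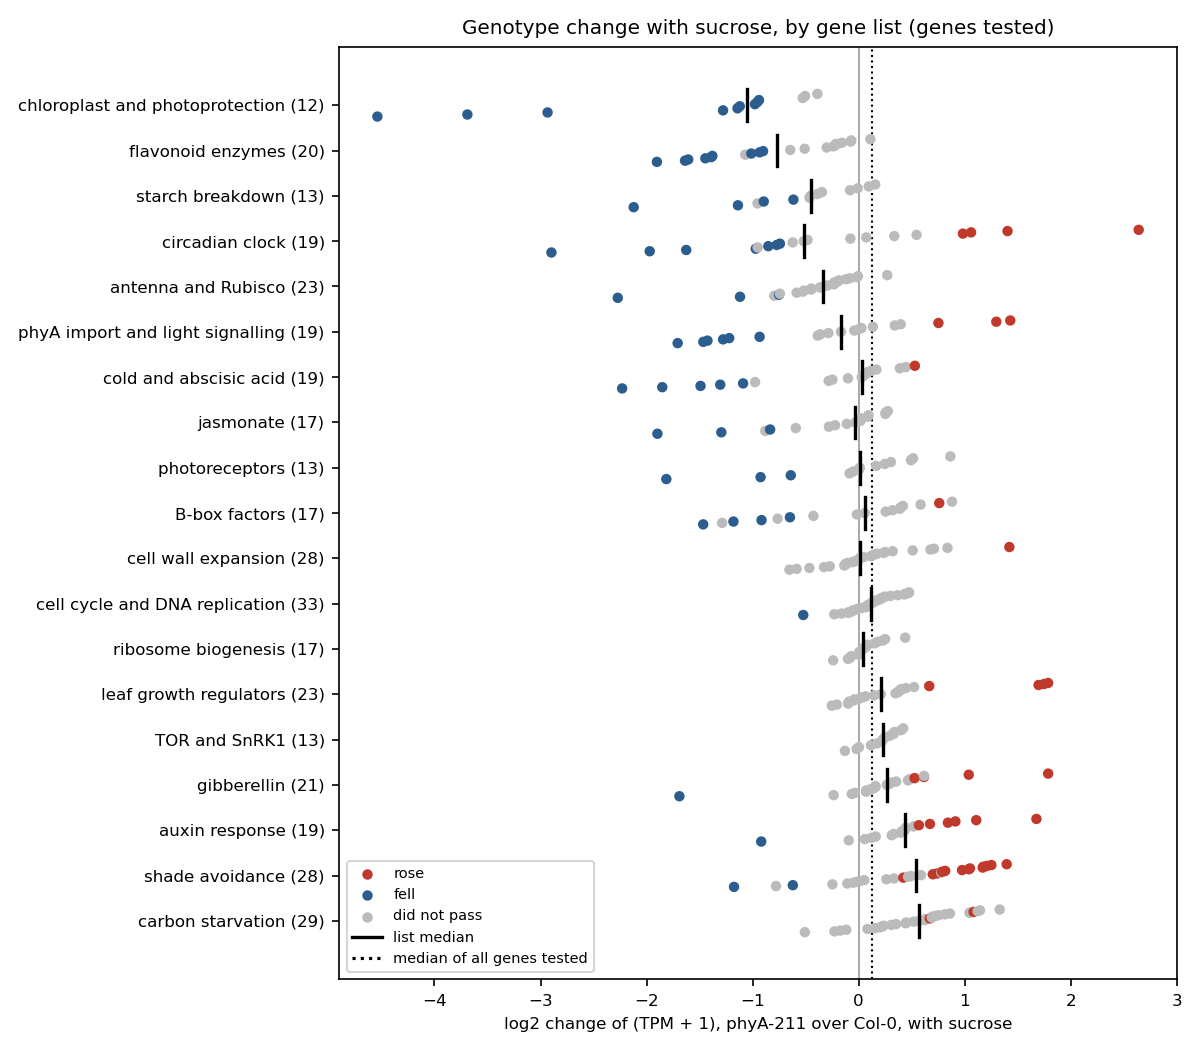
Log2 change of (TPM + 1) in phyA-211 over Col-0 with sucrose for each gene tested in 19 lists (number of genes in brackets); red rose, blue fell, grey did not pass, black bars are list medians and the dotted line the median of all genes (0.12). The photoprotection list lies wholly left of 0 (median -1.05), the flavonoid enzymes mostly so (median -0.77), and the shade avoidance list mostly right (median 0.54).

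Of 20 enzymes of the flavonoid pathway tested, 9 fell (45%), 0 rose and the median log2 change was -0.77. In 14, every phyA-211 library was below every Col-0 library, as in 8.41% of all genes. TT4, chalcone synthase and the entry enzyme, measured 106, 107 and 109 TPM in the phyA-211 libraries, against 334, 387 and 295 TPM in the Col-0 libraries (log2 change -1.64, SE 0.24, adjusted p = 0.00159). F3H, flavanone 3-hydroxylase, had 9.76, 9.87 and 20.5 TPM in phyA-211 and 48.2, 54.6 and 47.0 TPM in Col-0 (log2 change -1.90, adjusted p = 0.000472). FLS1, flavonol synthase, had 15.2, 18.6 and 21.6 TPM in phyA-211 and 53.2, 68.0 and 53.2 TPM in Col-0 (log2 change -1.61, adjusted p = 0.000344). UGT78D2, a flavonoid glucosyltransferase, had 21.0, 23.2 and 26.3 TPM in phyA-211 and 59.4, 65.2 and 62.9 TPM in Col-0 (log2 change -1.38, adjusted p = 7.51e-05). CHIL, a helper of chalcone synthase, fell by 1.39, 4CL3 by 1.44 and TT5, chalcone isomerase, by 0.90 on the log2 scale. DFR, the first enzyme of the anthocyanin branch, did not pass (log2 change -0.16), nor did LDOX (-0.51), which follows it. Of the 8 regulators tested, MYB111 (-1.02) and MYB12 (-0.78), which act on the flavonol enzymes, had the lowest values, and 0 passed; at an unadjusted p under 0.05 there were 2. The list of enzymes held 7 to 10 falls whichever library was left out, and 11 on median-ratio rescaling.

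Clock genes moved in both directions: of 19 clock genes tested 4 rose (21.1%) and 7 fell (36.8%), with a median log2 change of -0.52. LHY, a morning transcription factor, had 73.4, 79.5 and 146 TPM in the phyA-211 libraries, against 14.5, 13.9 and 14.7 TPM in the Col-0 libraries (log2 change 2.64, SE 0.35, adjusted p = 0.00102). Its partner CCA1 had 36.3, 37.4 and 61.2 TPM in phyA-211 and 17.7, 14.5 and 15.6 TPM in Col-0 (log2 change 1.405, adjusted p = 0.0237). LNK2 (AT3G54500), a coactivator, had 209, 180.3 and 162 TPM in phyA-211 and 99.2, 89.8 and 87.0 TPM in Col-0 (log2 change 0.98, adjusted p = 0.00262). RVE8 rose by 1.06 on the log2 scale. Some of the falls were genes known to peak later in the day. ELF4, of the evening complex, had 10.6, 10.3 and 9.12 TPM in the phyA-211 libraries, against 68.2, 80.2 and 96.97 TPM in the Col-0 libraries (log2 change -2.90, SE 0.16, adjusted p = 3.01e-06). GI, the GIGANTEA protein of day-length sensing, had 11.8, 13.0 and 13.6 TPM in phyA-211 and 69.8, 52.7 and 40.2 TPM in Col-0 (log2 change -1.97, adjusted p = 0.000374). PRR5 had 6.03, 5.61 and 6.09 TPM in phyA-211 and 24.1, 22.4 and 15.5 TPM in Col-0 (log2 change -1.63, adjusted p = 0.000756). TOC1 fell by 0.97 and PCL1 (LUX), a partner of ELF4, by 0.85. PRR9 (-0.74) and LNK1 (AT5G64170), a coactivator as LNK2 is (log2 change -0.77), fell as well. LNK1 and LNK2 thus moved in opposite directions. CCA1 was lost without phyA-211 library 2 or 3 or Col-0 library 2 or 3 (adjusted p = 0.0513 to 0.1). RVE8 was lost without phyA-211 library 1, 2 or 3 or Col-0 library 1, 2 or 3 (adjusted p = 0.0515 to 0.0998). PRR9 was lost without phyA-211 library 2 or Col-0 library 1 or 2 (adjusted p = 0.0571 to 0.0846), and AT5G64170 without phyA-211 library 1 or 2 or Col-0 library 1 or 2 (adjusted p = 0.0557 to 0.0965). Without Col-0 library 2, Col-0 library 3 or phyA-211 library 2 the list held 2 rises in place of 4, and on median-ratio rescaling 11 falls in place of 7. The labels give no time of day of harvest.

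Genes of the shade avoidance response were mostly higher in the mutant: of 28 tested, 13 rose (46.4%) and 2 fell (7.14%). In 17, every phyA-211 library was above every Col-0 library, as in 19.2% of all genes. The median log2 change was 0.54. HB-2 (ATHB2), a homeobox factor and classic shade marker, had 144, 155 and 195 TPM in the phyA-211 libraries, against 68.5, 71.2 and 70.2 TPM in the Col-0 libraries (log2 change 1.21, SE 0.14, adjusted p = 0.000444). HAT2 had 54.7, 67.6 and 76.8 TPM in phyA-211 and 28.0, 25.8 and 32.5 TPM in Col-0 (log2 change 1.17, adjusted p = 0.00179). IAA29, an auxin repressor gene that PIFs induce, had 71.5, 69.5 and 66.8 TPM in phyA-211 and 30.2, 34.6 and 34.8 TPM in Col-0 (log2 change 1.04, adjusted p = 7.78e-05). PAR1, a brake on the shade response, had 88.8, 90.7 and 76.2 TPM in phyA-211 and 34.7, 29.2 and 42.7 TPM in Col-0 (log2 change 1.25, adjusted p = 0.00665). PIL2 (PIF6) had 55.6, 51.8 and 52.5 TPM in phyA-211 and 29.9, 21.3 and 19.1 TPM in Col-0 (log2 change 1.18, adjusted p = 0.000802). PIF3 had 57.6, 58.8 and 74.9 TPM in phyA-211 and 44.2, 35.8 and 30.1 TPM in Col-0 (log2 change 0.79, adjusted p = 0.00655; adjusted p = 0.0615 with the 2 groups alone). YUC8, an auxin synthesis enzyme, rose by 0.70, CKX5, a cytokinin oxidase, by 1.05 and HB4 by 0.82 on the log2 scale. XTH15, a cell wall enzyme gene, measured 2493, 2561 and 1692 TPM in phyA-211 and 912, 775 and 835 TPM in Col-0 (log2 change 1.397, adjusted p = 0.00952; lost without Col-0 library 2 (adjusted p = 0.0528)). Not all markers moved. PIL1 did not pass (log2 change 0.78), nor did HFR1 (-0.11), a brake that phytochrome A stabilises as a protein, or PIF7 (-0.78). Among the falls, UNE10 (PIF8) had 29.3, 23.65 and 31.6 TPM in phyA-211 and 64.9, 69.5 and 59.5 TPM in Col-0 (log2 change -1.17, adjusted p = 0.00387). PIF4 had 38.6, 36.5 and 29.6 TPM in phyA-211 and 59.6, 55.9 and 46.9 TPM in Col-0, a call lost without phyA-211 library 2 or 3 or Col-0 library 1 or 2 (adjusted p = 0.0883 to 0.143). The list held 10 to 14 rises whichever library was left out and 12 on median-ratio rescaling.

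Auxin response genes held 6 rises (31.6%) and 1 fall (5.26%) among 19 tested and a median log2 change of 0.44. GH3.3, an auxin-conjugating enzyme gene, had 66.3, 76.4 and 92.5 TPM in the phyA-211 libraries, against 23.55, 22.6 and 24.7 TPM in the Col-0 libraries (log2 change 1.68, SE 0.26, adjusted p = 0.00237). WES1 (GH3.5) had 86.9, 99.9 and 85.8 TPM in phyA-211 and 51.1, 39.6 and 35.3 TPM in Col-0 (log2 change 1.11, adjusted p = 0.00528). The auxin repressor gene IAA2 had 525, 509 and 477 TPM in phyA-211 and 264, 272 and 306 TPM in Col-0 (log2 change 0.84, adjusted p = 0.00294). The auxin exporter gene PIN7 rose by 0.57 and was lost without Col-0 library 2 (adjusted p = 0.0564). IAA14, a repressor known from lateral roots, had 12.4, 16.4 and 13.1 TPM in phyA-211 and 23.4, 26.3 and 32.2 TPM in Col-0 and was the fall, lost without Col-0 library 3 (adjusted p = 0.0529). Without Col-0 library 2 the list held 3 rises and without phyA-211 library 2 it held 4. Among the 59 small auxin-up RNA genes 4 rose (6.78%) and 4 fell (6.78%). SAUR36 had 15.1, 15.1 and 21.96 TPM in phyA-211 and 4.97, 5.41 and 5.80 TPM in Col-0 (log2 change 1.51, adjusted p = 0.000682). AT2G21210 had 26.5, 23.5 and 26.4 TPM in phyA-211 and 62.2, 60.8 and 79.1 TPM in Col-0 (log2 change -1.36, adjusted p = 0.000158). In a list of 28 expansin and xyloglucan enzyme genes, which leaves out XTH15, 1 passed and the median log2 change was 0.01. It was XTH24 (397, 529 and 579 TPM in phyA-211 and 209, 171 and 176 TPM in Col-0; log2 change 1.42, adjusted p = 0.00583). Over the whole families, 3 of 24 xyloglucan endotransglucosylases rose and 0 fell, while 0 of 22 expansins passed. The rises were XTH24, XTH15 and XTH25, a gene of low level (3.25, 3.46 and 1.35 TPM in phyA-211 and 0.91, 0.58 and 1.08 TPM in Col-0; log2 change 0.94, adjusted p = 0.027) lost without phyA-211 library 1 or 2 or Col-0 library 1 or 2 (adjusted p = 0.0516 to 0.125).

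Growth regulators of the leaf held 4 rises (17.4%) and 0 falls among 23 tested. ARGOS, which extends organ growth through cell number, had 58.3, 57.1 and 77.8 TPM in the phyA-211 libraries, against 17.59, 16.6 and 23.3 TPM in the Col-0 libraries (log2 change 1.70, SE 0.25, adjusted p = 0.00171). Its relative ARL, which acts on cell expansion, had 97.8, 103 and 141 TPM in phyA-211 and 34.2, 26.5 and 35.7 TPM in Col-0 (log2 change 1.79, adjusted p = 0.000728). GRF7 (AT5G53660), a growth-regulating factor, had 13.3, 16.5 and 9.21 TPM in phyA-211 and 4.87, 2.44 and 2.34 TPM in Col-0 (log2 change 1.75, adjusted p = 0.018) and was lost without phyA-211 library 2 or Col-0 library 2 or 3 (adjusted p = 0.0702 to 0.0853). PPD2 (AT4G14720), which limits dispersed divisions in the leaf, rose by 0.67 on the log2 scale and was lost without Col-0 library 2 (adjusted p = 0.0602). The list held 2 rises without Col-0 library 2 and 6 without phyA-211 library 3. The growth-regulating factors GRF1 to GRF5 and the TCP factors did not pass, nor did AN3 (log2 change 0.03). Of 33 cell cycle and replication genes 1 passed: RNR2A, a ribonucleotide reductase subunit (14.97, 14.1 and 15.6 TPM in phyA-211 and 22.1, 22.1 and 21.1 TPM in Col-0), lost without phyA-211 library 1 or 2 or Col-0 library 1, 2 or 3 (adjusted p = 0.0626 to 0.119). Of 17 ribosome biogenesis genes 0 passed in limma and 1 had an unadjusted p under 0.05. In 8 of the 17 (47.1%, against 4.21% of all genes) phyA-211 libraries 1 and 2 were below all Col-0 libraries and library 3 was above all. Without library 3 the median log2 change of the list was -0.23 in place of 0.04, and still 0 passed. Of 13 genes of the TOR and SnRK1 kinases 0 passed and 3 had an unadjusted p under 0.05. Without library 3, 1 of these 13 rose. TOR itself had 25.1, 28.5 and 24.6 TPM in phyA-211 and 26.0, 19.9 and 16.5 TPM in Col-0 (log2 change 0.33). Among 317 ribosomal protein genes 1 rose and 1 fell.

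In the gibberellin list, 4 of 21 genes rose (19%) and 1 fell (4.76%). TEM1, an AP2/B3 factor that represses flowering and gibberellin synthesis, had 159, 144 and 129.7 TPM in the phyA-211 libraries, against 35.9, 37.8 and 50.4 TPM in the Col-0 libraries (log2 change 1.79, SE 0.13, adjusted p = 3.1e-05). Its paralog RAV2 (TEM2) had 133, 117 and 119.7 TPM in phyA-211 and 52.4, 56.6 and 70.3 TPM in Col-0 (log2 change 1.04, adjusted p = 0.000311). GAI, a DELLA repressor of gibberellin responses, rose by 0.62 on the log2 scale. ATGA2OX1, a gibberellin-inactivating enzyme gene, was low throughout at 0.15, 0.11 and 0 TPM in phyA-211 and 2.47, 2.69 and 2.35 TPM in Col-0 (log2 change -1.69, adjusted p = 0.000283). SMZ, another AP2 repressor of flowering, fell (6.12, 6.72 and 8.4 TPM in phyA-211 and 29.7, 24.8 and 20.4 TPM in Col-0; log2 change -1.68, adjusted p = 0.000173).

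Among genes that respond to carbon supply, the calls turned on library 3 of phyA-211. Of 29 genes of the carbon starvation response, 2 rose (6.9%) and 0 fell, and the median log2 change was 0.57. Without phyA-211 library 3, 21 of the 29 rose. ASN1, the dark-inducible asparagine synthetase, had 122.86, 189 and 4.07 TPM in the phyA-211 libraries, against 27.4, 27.8 and 29.4 TPM in the Col-0 libraries. MCCA, a subunit of leucine breakdown, had 135, 158 and 14.2 TPM in phyA-211 and 42.6, 40.2 and 42.4 TPM in Col-0. BCAT-2, of branched-chain amino acid breakdown, had 76.6, 106 and 6.57 TPM in phyA-211 and 13.5, 16.7 and 14.3 TPM in Col-0. The transcription factor bZIP1 had 74.3, 61.8 and 16.9 TPM in phyA-211 and 17.0, 17.61 and 22.4 TPM in Col-0. For each of these, libraries 1 and 2 of phyA-211 were above all Col-0 libraries and library 3 was below all of them. That pattern held for 21 of the 29 genes (72.4%) and for 2.8% of all genes tested. Library 3 stood at the end of the 6 libraries in other lists too: it was the highest in all 17 ribosome biogenesis genes and in 12 of 13 heat shock genes. Over all 19862 genes tested it was the highest in 8155. With sorbitol in place of sucrose these 4 genes were higher in both genotypes: ASN1 reached 998, 842 and 992 TPM in phyA-211 and 512, 552 and 1442 TPM in Col-0. The list of genes known to be induced by sugar had 2 rises among 14 tested: QQS, described above, and G6PD2, which was lost without phyA-211 library 2 or Col-0 library 2 or 3 (adjusted p = 0.0612 to 0.114). In these data QQS was lower with sucrose than with sorbitol. Its means were 72.9 against 125 TPM in phyA-211 and 8.64 against 13.6 TPM in Col-0. GPT2, a glucose-6-phosphate transporter of the plastid, had 10.9, 29.3 and 131 TPM in phyA-211 and 22.3, 32.6 and 8.79 TPM in Col-0. G6PD3, a plastid enzyme of the pentose phosphate pathway, had 19.4, 26.6 and 83.3 TPM in phyA-211 and 32.1, 28.2 and 23.8 TPM in Col-0. Library 3 of phyA-211 was the highest of the 6 for both and neither passed. What sets library 3 apart was not tested. In the carbon starvation list, 1 of the 2 rises was EXL2, an EXORDIUM-like gene that kept all 3 phyA-211 libraries above Col-0 (324, 399.5 and 252 TPM in phyA-211 and 178, 127 and 151 TPM in Col-0; log2 change 1.08, adjusted p = 0.00769). TPS10, a trehalose phosphate synthase-like gene, was the other rise (66.7, 75.1 and 44.8 TPM in phyA-211 and 44.9, 34.7 and 34.6 TPM in Col-0) and was lost without phyA-211 library 1 or 2 or Col-0 library 2 or 3 (adjusted p = 0.104 to 0.161), on median-ratio rescaling (adjusted p = 0.089) and on quantile normalization (adjusted p = 0.0905).

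**Figure D3:**
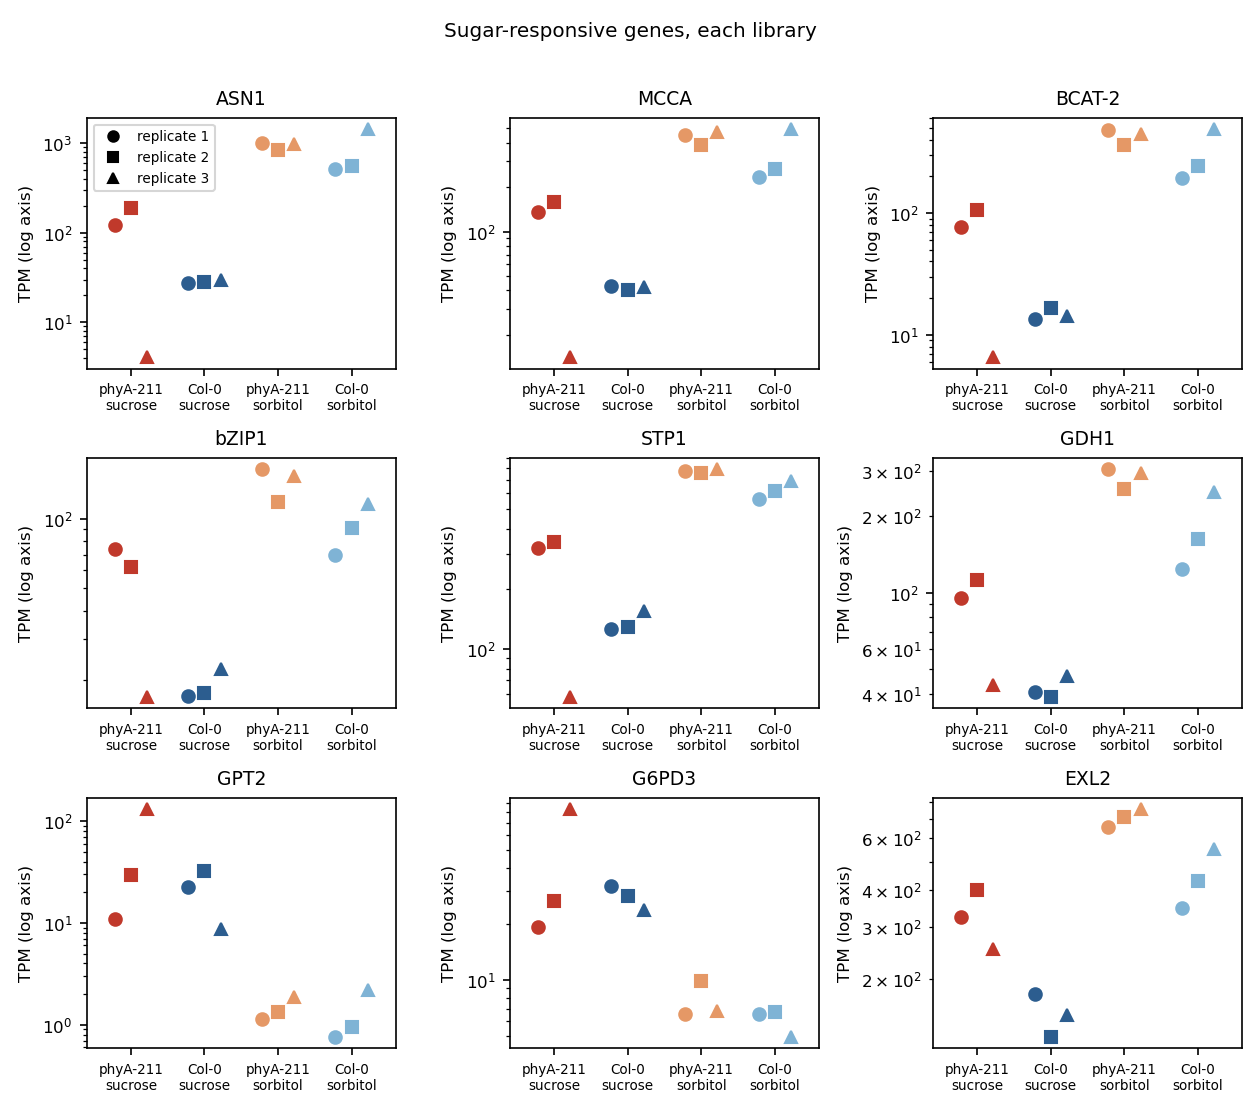
TPM on log axes of 9 sugar-responsive genes in each library of the 4 groups; symbols mark replicates 1 (circle), 2 (square) and 3 (triangle). For ASN1, MCCA, BCAT-2 and STP1 the phyA-211 sucrose libraries 1 and 2 lie between the Col-0 sucrose and the sorbitol libraries while library 3 lies below all others; for GPT2 and G6PD3 library 3 is the highest.

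Of 13 genes of starch breakdown 4 fell (30.8%) and 0 rose. In 8, every phyA-211 library was below every Col-0 library, as in 8.41% of all genes. CT-BMY (BAM3), the chloroplast beta-amylase of night-time breakdown, had 72.8, 59.9 and 51.4 TPM in the phyA-211 libraries, against 289, 279 and 238 TPM in the Col-0 libraries (log2 change -2.12, SE 0.29, adjusted p = 0.00133). PHS2, the cytosolic glucan phosphorylase, had 29.8, 29.4 and 48.6 TPM in phyA-211 and 93.0, 88.3 and 57.9 TPM in Col-0. AMY3, a plastid alpha-amylase, had 44.4, 42.0 and 60.7 TPM in phyA-211 and 112, 98.1 and 68.3 TPM in Col-0. PHS2 was lost without phyA-211 library 1 or 2 or Col-0 library 1 or 2 (adjusted p = 0.0692 to 0.109), and AMY3 without phyA-211 library 1 or 2 or Col-0 library 1 or 2 (adjusted p = 0.092 to 0.145). PWD (AT5G26570), a phosphoglucan water dikinase, was the remaining fall (log2 change -0.61, adjusted p = 0.0224) and was lost without phyA-211 library 1 or 2 or Col-0 library 1 or 2 (adjusted p = 0.0636 to 0.104). The list held 1 fall without Col-0 library 1, Col-0 library 2, phyA-211 library 1 or phyA-211 library 2, 7 without Col-0 library 3, and 8 on median-ratio rescaling. SWEET2, a sugar carrier of the vacuole, fell (15.8, 13.7 and 10 TPM in phyA-211 and 29.0, 26.0 and 23.0 TPM in Col-0; log2 change -0.95, adjusted p = 0.00374). Of 15 autophagy genes 0 passed in limma and 4 had an unadjusted p under 0.05. Their median log2 change was 0.34, beside 0.12 for all genes. In 12 of the 15 (80%, against 26.5% of all genes) phyA-211 libraries 1 and 2 were above all Col-0 libraries. Without phyA-211 library 3, 1 autophagy gene rose.

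Of 19 cold and abscisic acid genes 5 fell (26.3%) and 1 rose (5.26%). KIN1, a cold-induced small protein, had 1.52, 3.04 and 2.53 TPM in the phyA-211 libraries, against 13.2, 12.8 and 17.9 TPM in the Col-0 libraries (log2 change -2.23, SE 0.23, adjusted p = 0.000195). COR413-PM1, a cold-regulated membrane protein, had 178, 203 and 173 TPM in phyA-211 and 449, 465 and 454 TPM in Col-0 (log2 change -1.30, adjusted p = 0.00023). The dehydrin LTI30 had 2.58, 5.70 and 5.03 TPM in phyA-211 and 21.8, 13.0 and 20.3 TPM in Col-0 (log2 change -1.85, adjusted p = 0.00621). KIN2 fell by 1.09 and was lost without phyA-211 library 1 or Col-0 library 2 or 3 (adjusted p = 0.0506 to 0.0619). COR15B fell by 1.49 and was lost without phyA-211 library 1 or 2 or Col-0 library 1, 2 or 3 (adjusted p = 0.052 to 0.0912). COR15A (-0.98) and RD22 (0.09) did not pass. The rise was that of ABI1, a phosphatase that restrains abscisic acid signalling (51.8, 49.4 and 44.3 TPM in phyA-211 and 33.9, 31.8 and 33.8 TPM in Col-0; log2 change 0.53, adjusted p = 0.0204), lost without phyA-211 library 1 or 2 or Col-0 library 2 or 3 (adjusted p = 0.0529 to 0.101), on median-ratio rescaling (adjusted p = 0.0822) and on quantile normalization (adjusted p = 0.066). The list held 3 falls without Col-0 library 2, Col-0 library 3 or phyA-211 library 1. In the jasmonate list 3 of 17 fell. AOC2, an allene oxide cyclase, had 10.4, 13.4 and 15.6 TPM in phyA-211 and 54.1, 49.7 and 49.4 TPM in Col-0 (log2 change -1.90, adjusted p = 0.00337). AOC1 had 5.70, 6.26 and 6.85 TPM in phyA-211 and 11.4, 11.2 and 13.2 TPM in Col-0 (log2 change -0.83, adjusted p = 0.0054). TIFY7 (JAZ9), a repressor, had 18.6, 15.5 and 5.64 TPM in phyA-211 and 31.5, 29.6 and 30.8 TPM in Col-0, lost without Col-0 library 1, 2 or 3 (adjusted p = 0.0727 to 0.108). These adjacent AOC genes are near-identical and their reads may be split. The salicylate and defence list held 1 rise among 12 genes, the transcription factor WRKY70 (15.6, 12.4 and 9.86 TPM in phyA-211 and 2.94, 3.79 and 4.37 TPM in Col-0; log2 change 1.52, adjusted p = 0.000975). MYB51, which drives indole glucosinolate synthesis, was the only call among 19 aliphatic and 13 indole glucosinolate genes (14.3, 15.8 and 31.8 TPM in phyA-211 and 9.49, 7.71 and 7.84 TPM in Col-0; log2 change 1.13, adjusted p = 0.0167). Its highest value was in library 3 of phyA-211, and the call was lost without Col-0 library 2 or 3 (adjusted p = 0.0586 to 0.0782). In 8 of the 19 aliphatic genes (42.1%, against 4.21% of all genes) phyA-211 libraries 1 and 2 were below all Col-0 libraries and library 3 was above all. Without library 3 the aliphatic list held 1 fall and its median log2 change was -0.63 in place of -0.30. FER1 rose and FER3 fell among 11 iron genes, both ferritins. FER1 was lost without phyA-211 library 2 or 3 or Col-0 library 1, 2 or 3 (adjusted p = 0.0532 to 0.169), on median-ratio rescaling (adjusted p = 0.0833) and on quantile normalization (adjusted p = 0.0633). FER3 was lost without phyA-211 library 2 or Col-0 library 2 (adjusted p = 0.062 to 0.0677). Of 17 cytokinin, 13 heat shock and 10 phosphate starvation genes 0 passed in limma, and 4 cytokinin, 1 heat shock and 1 phosphate gene had an unadjusted p under 0.05; without phyA-211 library 3, 2 cytokinin genes fell.

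Sorting the tested genes by the description in the table gave 50 families. Homeobox factors held the largest share of rises among families of at least 40 genes, 10 of 66 (15.2%), with 0 falls; the shade markers HB-2, HAT2 and HB4 are among them. NAC factors had 6 rises of 46 (13%) and 0 falls, among them NAC6 (ORE1), a regulator of leaf senescence, with 33.8, 28.4 and 17.4 TPM in phyA-211 and 9.05, 8.08 and 10.6 TPM in Col-0 (log2 change 1.38, adjusted p = 0.00269). AP2/ERF factors had 10 rises (12.8%) and 3 falls (3.85%) of 78. TEM1 is among them, and ESE3 had 35.05, 29.8 and 33.5 TPM in phyA-211 and 8.37, 9.99 and 10.7 TPM in Col-0 (log2 change 1.66, adjusted p = 0.000221). Calmodulin and EF-hand proteins had 10 rises of 95 (10.5%) and 0 falls, and type 2C protein phosphatases 5 rises of 51 (9.8%) and 0 falls. The phosphatase gene AT5G02760 had 370.5, 355 and 410.4 TPM in phyA-211 and 146, 118 and 122 TPM in Col-0 (log2 change 1.55, adjusted p = 3.24e-05). RING and U-box proteins had 19 rises (7.98%) and 6 falls (2.52%) of 238.

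Families with falls were of another kind. Chlorophyll-binding and photosystem proteins had 10 falls of 66 (15.2%) and 0 rises, and lipid transfer proteins 5 falls of 64 (7.81%) and 0 rises. The lipid transfer gene AT4G00165 had 16.9, 11.6 and 15.6 TPM in phyA-211 and 84.2, 99.8 and 95.2 TPM in Col-0 (log2 change -2.59, adjusted p = 2.61e-05). Cytochromes P450 had 14 falls and 5 rises of 146: CYP71B11 had 2.76, 2.81 and 1.78 TPM in phyA-211 and 12.4, 11 and 9.41 TPM in Col-0 (log2 change -1.80, adjusted p = 0.000158). CYP706A5, beside CYP706A6 in the genome, had 17.0, 17.0 and 13.8 TPM in phyA-211 and 50.7, 47.9 and 36.7 TPM in Col-0 (log2 change -1.44, adjusted p = 0.000299). UDP-glycosyltransferases moved both ways, with 13 falls (12.6%) and 9 rises (8.74%) of 103. UGT78D2 fell, while UGT84A3, which glucosylates phenylpropanoid acids, had 8.95, 9.25 and 9.03 TPM in phyA-211 and 3.38, 3.23 and 2.71 TPM in Col-0 (log2 change 1.298, adjusted p = 0.0014). No call was made among 111 leucine-rich repeat kinases, 44 histones, 26 aquaporins and 22 expansins in limma. At an unadjusted p under 0.05 these families held 4, 8, 1 and 3 genes, beside 4759 of all 19862 genes tested.

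**Figure D4:**
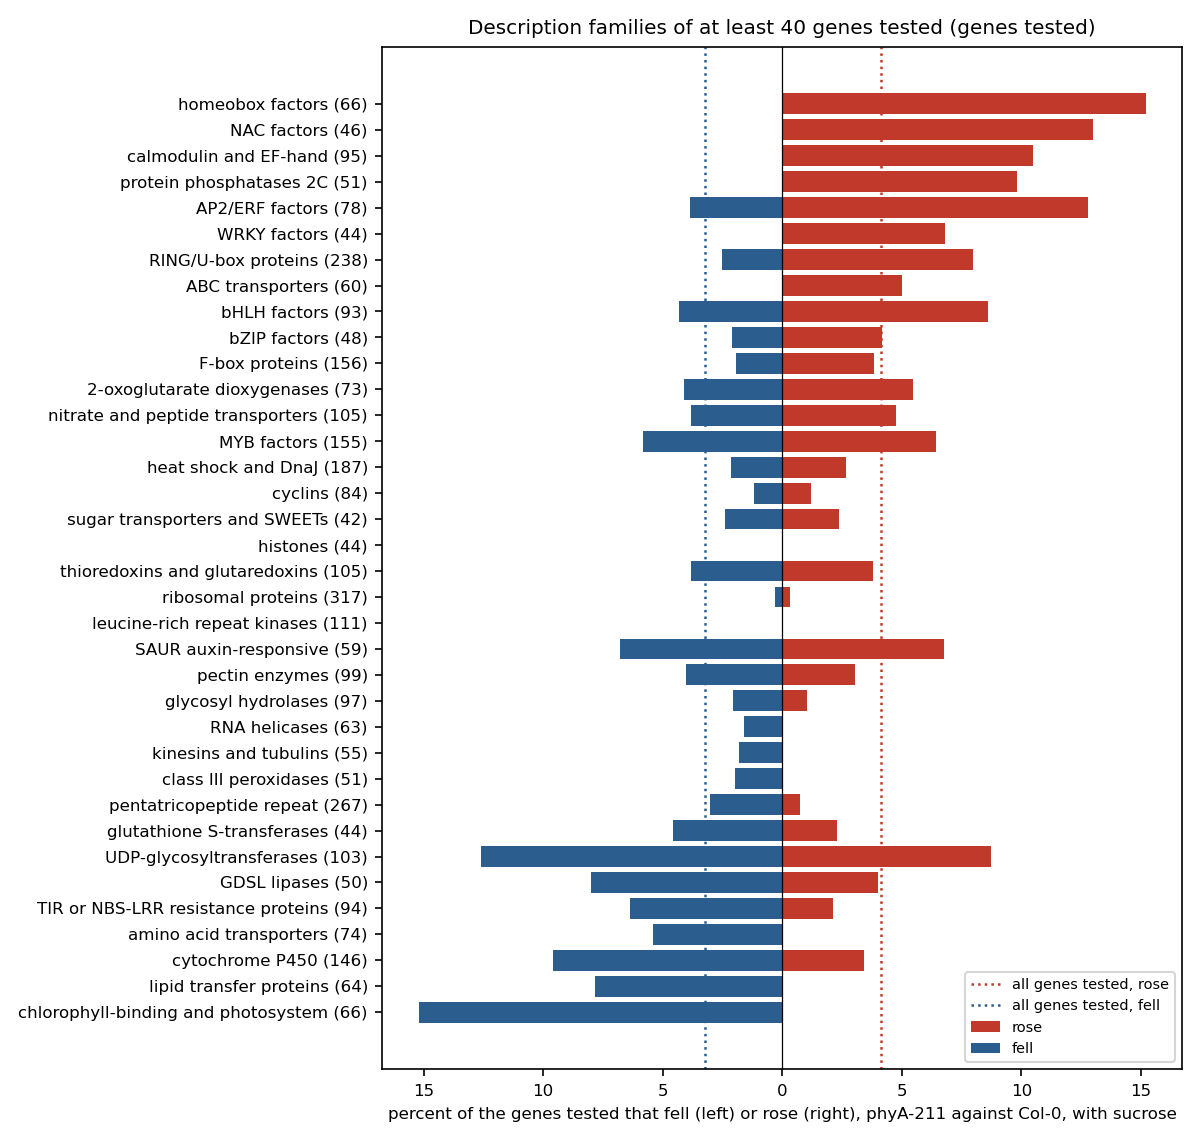
Share of the genes tested that rose (red, right) or fell (blue, left) in phyA-211 against Col-0 with sucrose, for description families of at least 40 genes (number tested in brackets); dotted lines are the shares over all genes (4.15% and 3.25%). Homeobox factors reach 15.2% on the right, and chlorophyll-binding and photosystem proteins 15.2% on the left.

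With sorbitol, 154 genes (0.775%) rose and 274 (1.38%) fell in phyA-211 against Col-0, together 2.15%. The 6 sorbitol libraries are not those compared with sucrose. Both comparisons come from the same fit, however, and share 1 estimate of the spread of each gene. The overlaps below are therefore not those of independent tests. Of the 824 rises with sucrose 106 (12.9%) also rose with sorbitol, which is 68.8% of the sorbitol rises. Of the 645 falls 246 (38.1%) also fell with sorbitol, which is 89.8% of the sorbitol falls. None was called in opposite directions. The sign was the same with sorbitol for 793 of the rises (96.2%), where 66% of all genes were higher in phyA-211, and for 634 of the falls (98.3%), where 33.9% of all genes were lower. The median log2 change of the rises was 0.66 with sucrose and 0.33 with sorbitol, and that of the falls was -0.96 with sucrose and -0.67 with sorbitol. Since the genes were chosen with sucrose, the smaller sorbitol medians show no difference between sugars.

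The test of that difference, the interaction of genotype and sugar, passed for 2 genes (0.0101%). The microRNA gene ath-MIR833a was at 15.2, 15.9 and 23.65 TPM in phyA-211 and 0, 0 and 0 TPM in Col-0 with sucrose and at 0 in all 6 sorbitol libraries (log2 difference 4.24, SE 0.27, adjusted p = 5.33e-05). It was thus above 0 in the phyA-211 sucrose libraries alone, and only these brought it past the filter. The groups at 0 hold no spread, which keeps its SE small. TEM1 was at 144 ± 14.5 TPM in phyA-211 and 41.4 ± 7.87 TPM in Col-0 with sucrose (SD, n = 3 each) and at 208 ± 7.97 TPM in phyA-211 and 171 ± 12.4 TPM in Col-0 with sorbitol (SD, n = 3 each), a genotype change of 1.79 with sucrose and 0.28 with sorbitol on the log2 scale (log2 difference 1.51, SE 0.19, adjusted p = 0.0473). The low group was thus Col-0 with sucrose. TEM1 did not pass on median-ratio rescaling (adjusted p = 0.264), nor when any of the 12 libraries was left out (adjusted p = 0.115 to 0.244) other than Col-0 sucrose library 3 or phyA-211 sucrose library 3. Nor did it pass in limma on quantile normalization (adjusted p = 0.151), with a block on replicate number (adjusted p = 0.236) or with no filter on low values (adjusted p = 0.0785). Genes that passed with sucrose alone are not thereby shown to differ. WRKY70 had a log2 change of 1.52 with sucrose and -0.09 with sorbitol (log2 difference 1.62, adjusted p = 0.279). For LTI30 these were -1.85 with sucrose and 0.08 with sorbitol (log2 difference -1.93, adjusted p = 0.695). For ARL they were 1.79 with sucrose and 0.49 with sorbitol (log2 difference 1.296, adjusted p = 0.697).

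**Figure D5:**
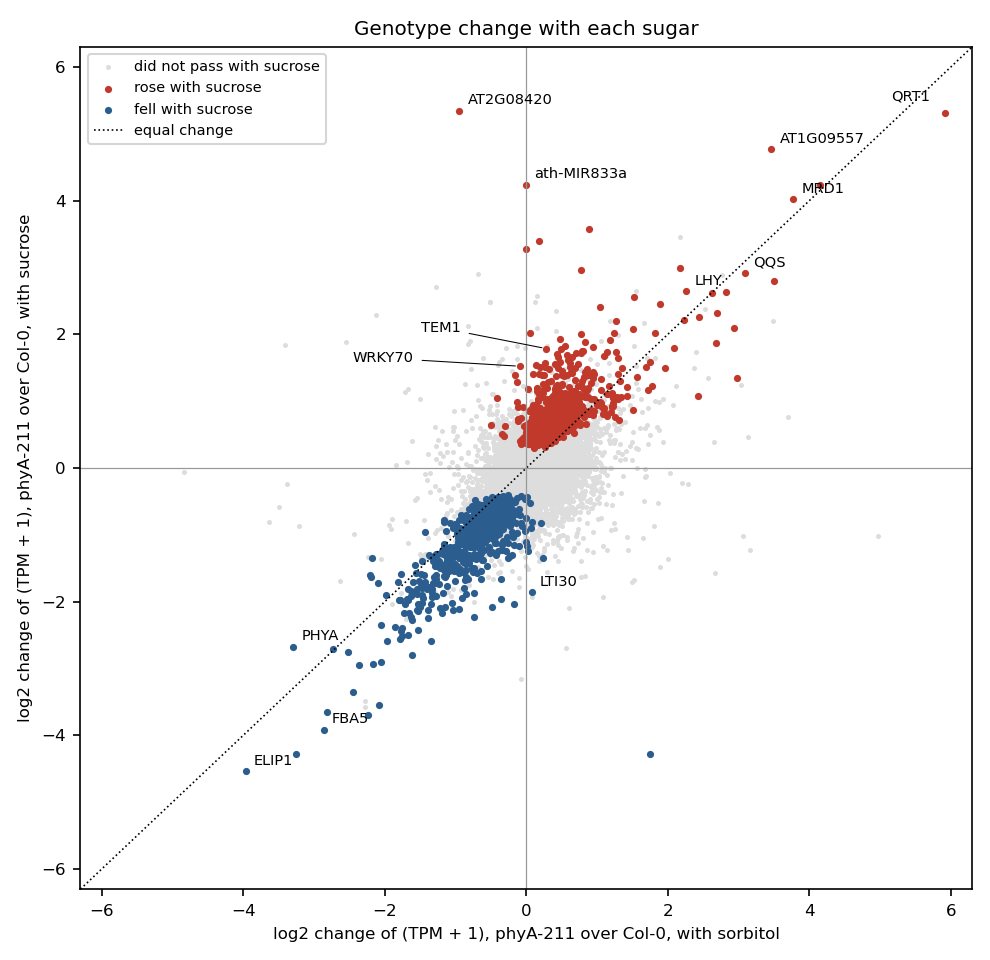
Log2 change of (TPM + 1) in phyA-211 over Col-0 with sucrose (vertical) against the same with sorbitol (horizontal) for all 19862 genes tested; red rose and blue fell with sucrose, grey did not pass, and the dotted line marks equal change. PHYA, ELIP1, QRT1 and QQS lie near the line of equal change, while ath-MIR833a and TEM1 lie above it near a sorbitol change of 0.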

How the data were processed

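Leaf polyadenylated RNA of 12 libraries was sequenced, 3 in each of 4 groups. TPM values per gene were deposited by the authors. The submitters' processing notes name fastp, cutadapt, HISAT2, DESeq2 and the build TAIR10, without versions or roles. Library sizes and read depth were not used here because TPM keeps no depth, so no counting interval is given.

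The test took in the 19862 of 32833 genes that reached 1 TPM in 3 or more of the 12 libraries. Values were taken as log2(TPM + 1) and fitted in limma 3.58.1 (R 4.3.3) with 4 group means over all 12 libraries, a trend in the prior variance, 8 residual and 3.68 prior degrees of freedom, and 2-sided p-values adjusted by Benjamini-Hochberg over all genes tested. A gene was called at an adjusted p under 0.05. Changes of genes with low TPM come out too small on this scale. The fit was tested on simulated data.

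Gene names are those of the table. For 28 tested genes, which include names that the table writes as dates (22 in all), the symbol came from the RefSeq gene table, where 32548 of the loci were found; 11325 tested genes have no symbol. Of 617 list entries in 32 lists, 550 were tested, 42 were below the filter and 25 did not match the table's name. The genes named were up to 15 largest rises and 15 largest falls with a symbol, without overlap of the groups and with a group mean of 5 TPM or more, up to 5 genes of each list and 3 of each family by adjusted p, and the genes of the sugar difference. A gene that this rule takes in is not reported here. Other named genes were chosen after their values were seen. The members and lists were chosen with earlier results of these data known. Alternatives were other pseudocounts, filters and scalings, library weights, a replicate block, a fit of the 2 groups alone and leaving out each library.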

Additional observations from a re-analysis of the deposited data

Results flagged for a closer look

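Of the genes tested, 2 differed between the sugars by the test of the difference itself in limma, and both are rises that the sucrose comparison showed and the sorbitol comparison did not. For ath-MIR833a the log2 difference was 4.24 (adjusted p = 5.33e-05): 15.2, 15.9 and 23.65 TPM in phyA-211 and 0, 0 and 0 TPM in Col-0 with sucrose, and 0 TPM in each of the 6 sorbitol libraries. It passed under every alternative tried, at adjusted p values up to 0.0438 in limma. These refits are no independent support for ath-MIR833a. Only the phyA-211 sucrose libraries brought it past the filter, and the groups at 0 hold no spread. How many reads lie behind its values is unknown. For TEM1 the log2 difference was 1.51 (adjusted p = 0.0473): 159, 144 and 129.7 TPM in phyA-211 and 35.9, 37.8 and 50.4 TPM in Col-0 with sucrose, against 216, 199.6 and 208 TPM in phyA-211 and 159, 172 and 183 TPM in Col-0 with sorbitol. The TEM1 difference rests on the settings named with it above, and the cause of either difference was not tested.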

How the results depend on the processing

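With the TPM values as deposited 824 genes rose, 645 fell and 2 differed between the sugars. A pseudocount of 0.1 gave 832 rises and 648 falls, no filter on low values 801 and 607, and a filter at 5 TPM 878 and 622. Median-ratio rescaling gave 602 and 912 and quantile normalization 654 and 855. The difference between sugars was called for 1 gene with no filter, with either rescaling and with the replicate block. The block on replicate number gave 637 rises and 649 falls; same-numbered libraries of the genotypes did not deviate together (correlations -0.131, -0.0572 and -0.107, and 0 of 6 libraries closest to their own number), so the numbers do not pair them. Fitting the 2 groups alone gave 266 rises and 388 falls, and asking for at least 2-fold 179 and 292. Library weights, which limma's default estimate did not converge on and which were taken gene by gene (0.192 for phyA-211 sucrose library 3 to 4.89 for Col-0 sucrose library 2), gave 6158, 2470 and 1376. Leaving out a library gave 254 to 936 rises, 316 to 675 falls and 1 to 2 differences. Among the lists, clock falls came to 11 on median-ratio rescaling, carbon starvation rises to 1 on either rescaling and 21 without phyA-211 sucrose library 3, and starch breakdown falls to 8 on median-ratio rescaling and 7 on quantile normalization. The causes of these shifts were not tested, other than that fewer libraries or genes enter some of the fits. PHYA kept its call throughout (log2 change -2.82 to -2.51). With 3 libraries a group and no read depth, small changes of low genes are the least certain.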

Other observations

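The SNF7 proteins, subunits of the ESCRT machinery that sorts membrane cargo into endosomes, were grouped after their values were seen. Of 10 tested 5 rose and 0 fell in phyA-211, by small amounts. VPS2.1 had 65.6, 68.0 and 73.3 TPM in phyA-211 and 48.1, 45.1 and 44.1 TPM in Col-0 (log2 change 0.58, adjusted p = 0.00628). SNF7.1 had 87.4, 85.8 and 95.8 TPM in phyA-211 and 66.1, 66.5 and 62.9 TPM in Col-0 (log2 change 0.45, adjusted p = 0.0104; adjusted p = 0.0789 on median-ratio rescaling), and VPS46.2 102, 104 and 109 TPM in phyA-211 and 76.2, 72.6 and 77.1 TPM in Col-0 (lost without Col-0 library 2 (adjusted p = 0.0742) and on median-ratio rescaling (adjusted p = 0.132)).

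Among 74 amino acid transporters 0 rose and 4 fell, among them UMAMIT13, an exporter-family gene, with 15.6, 14.8 and 11.6 TPM in phyA-211 and 30.1, 30.7 and 25 TPM in Col-0 (log2 change -0.99, adjusted p = 0.00255). Pentatricopeptide repeat proteins edit and process organelle RNA. Of 267 genes that a text match on the description placed with them, 2 rose (0.749%) and 8 fell (3%). The match also took in at least 1 gene of another kind, AIF1, so these counts are not of such proteins alone. Over all genes 4.15% rose and 3.25% fell, so the share of falls was near that of all genes. AIF1, a helix-loop-helix gene that the wording of its description placed there, is among the falls. It had 11.2, 12.7 and 12.3 TPM in phyA-211 and 40.6, 48.9 and 51.8 TPM in Col-0 (log2 change -1.88, adjusted p = 2.61e-05).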
